A study of Mus musculus with 14 samples.

Results

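Kidneys of mice injected with Dps were compared at 24 h and at 4 h after the injection, to describe what changed in the organ between these times. The comparison takes the libraries by their labels: 3 of Dps at 24 h against 3 of Dps at 4 h, 6 of the 14 libraries in the series. Messenger RNA of whole, snap-frozen kidney was sequenced. All mice were male C57BL/6J, with no genetic change named, and Dps was given into a vein at 18 mg/kg in both groups. The series also holds 3 libraries of vehicle control, with no time after injection given, and MnDps at the same dose, with 3 libraries at 4 h and 2 at 24 h. Age, time of day at collection, and whether each library is 1 animal are not stated in the labels, so a p-value sets a change against the spread among these libraries only, which may be technical in part. In whole kidney, fewer cells of a type and less RNA per cell cannot be told apart. The labelled tissue was met by its own markers: Slc34a1, the phosphate transporter of the proximal tubule, stood at 5632 to 6053 CPM (counts scaled to the library's total and composition) at 4 h and 5905 to 6920.0 at 24 h, and Nphs1, the podocyte slit-diaphragm gene, at 24 to 26.6 and 20.3 to 27.6.

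Dps is the usual short name of the DNA-binding protein from starved cells, a bacterial relative of ferritin whose subunits form a small hollow cage. The labels do not spell out the name or say how MnDps differs. Cells that sense microbial or damaged nucleic acid make type I interferon, which acts through its receptor on a DNA element in the promoters of many antiviral genes, while interferon gamma acts through a receptor of its own on GTPases and antigen-presentation genes. The kidney is mostly tubule epithelium, with a dense capillary bed and resident macrophages, and many of its transporters follow the circadian clock.

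Between 4 h and 24 h the interferon program of the Dps kidneys fell steeply, and with it chemokines, acute-phase genes and endothelial adhesion molecules. Marker lists of macrophages and monocytes, of endothelium and of principal and intercalated cells of the collecting duct had more members called higher than lower. Each had calls in both directions. Of 14854 genes tested, 3270 (22%) were higher and 3356 (22.6%) lower at 24 h (edgeR quasi-likelihood test, Benjamini-Hochberg adjusted p under 0.05). Past 2-fold, 337 genes were higher and 730 lower. The shares of 22% and 22.6% are those to set beside each count of list members below, and a count near them is no result about the list. Part of this pattern followed transcript length. Across genes the change correlated with length (Spearman's rho -0.43 over 14760 genes of the same 6 libraries, a description), with a median log2 change of 0.31 for transcripts of 2131 bases or less and -0.28 for those of 4713 bases or more. After a correction for length and GC content, 3511 genes (23.6%) were higher and 2140 (14.4%) lower, so the share of calls that were higher went from 49.4% to 62.1%, while the median of all genes went from -0.01 to 0.06. Of the higher calls 2478 (75.8%) and of the lower calls 1948 (58.0%) were also made with the correction. The 4 h libraries held 17785142 to 42074942 counts and the 24 h libraries 19172882 to 21010538, and 2 of the 3 libraries at 4 h exceeded 30000000, as did 1 control.

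The effectors of the interferon response, the proteins that act on viral RNA and protein, were, with 1 exception, higher at 4 h than at 24 h. Of 34 effector genes, 33 fell and none rose; the median log2 change was -3.34 (-3.16 with the length and GC correction). Slfn4, a Schlafen gene of myeloid cells at chr11:83175172-83190216, was at 44.8, 56 and 40.8 CPM in the 3 libraries at 4 h, at 0.534, 0.833 and 0.956 at 24 h and at 0.22, 0.229 and 0.215 in the controls. It showed the largest fall among the genes named by rule (-5.91 ± 0.20 log2, SE; adjusted p = 3.13e-12, edgeR), 60.2-fold, and its 24 h libraries remained above all controls. Oasl1, a 2'-5'-oligoadenylate synthetase-like protein at chr5:114923143-114937911, went from 224, 331 and 252 CPM to 4.27, 7.49 and 3.73, against 2.91, 3.55 and 2.1 in the controls (log2 -5.70 ± 0.25, adjusted p = 4.58e-09, edgeR). Ifit2, which binds viral RNA and is encoded at chr19:34550550-34576534, went from 554, 794 and 513 CPM to 13.1, 13.9 and 12.6, with the controls at 11.5, 12.6 and 10.2. Its log2 change was -5.56 ± 0.19 (adjusted p = 3.66e-11, edgeR). All 3 libraries at 24 h lay above the controls only by less than the rounding, as the lowest of them and the highest control both read 12.6. For Ifit1, of the same family, the libraries at 4 h held 369.5, 497 and 376 CPM, those at 24 h 11.7, 15.9 and 13.3 and the controls 4.89, 7.11 and 5.49 (log2 -4.92 ± 0.16). Isg15, the ubiquitin-like protein joined to other proteins during the response, was at 159, 237 and 167 CPM at 4 h, at 7.31, 11 and 8.84 at 24 h and at 3.73, 5.39 and 3.31 in the controls (log2 -4.38 ± 0.23). In these genes no library of 4 h overlapped one of 24 h.

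Some effectors fell less. Bst2, the tetherin that holds budding virus at the membrane, stood at 171, 227 and 192 CPM at 4 h and still at 73.5, 103 and 70.7 at 24 h, with the controls at 15.5, 20.2 and 12.9 (log2 -1.25 ± 0.21, adjusted p = 0.00062, edgeR). All 24 h libraries were thus below all 4 h libraries and above all controls. Ifi27l2a was the only effector of the list that did not pass the test, at 21.8, 40.4 and 22.4 CPM at 4 h and 29.9, 37.6 and 30.1 at 24 h, both above the controls at 3.62, 12.3 and 7.54 (log2 0.20 ± 0.32, adjusted p = 0.656, edgeR).

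**Figure D1:**
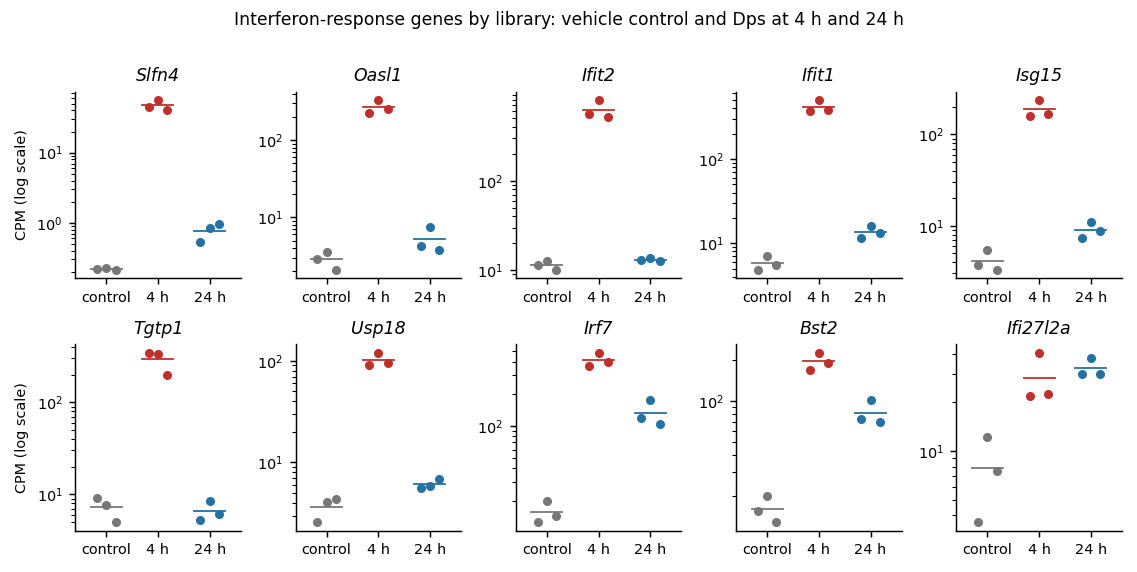
CPM on a log axis of interferon genes in each control, Dps 4 h and Dps 24 h library, with 1 point a library and a bar at the group mean. The 4 h points stand above those of 24 h in each gene shown that the text calls lower, and the distance between 24 h and control differs from gene to gene.

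Several of these genes share a short DNA element next to their start sites, shown here because the members moved together. The interferon-stimulated response element was searched by its core, GAAA and GAAA separated by any 2 bases, on both strands of 250 bases before to 50 bases after each start site (RefSeq, GRCm38.p6). Of the 68 genes of the 3 interferon lists, 49 had an entry in the promoter table and 25 of these (51.0%) held the core, against 372 of the promoters of 11723 tested genes (3.17%) and 944 of all 27025 promoters (3.49%). Promoters of 3 named genes with the core and large falls are printed here from the first base of the window to the last base before the start site, 5′ to 3′ on the gene's strand, with the core in capitals. Tgtp1 (minus strand, chr11:48992247-48992496) holds it from base -77 to -68. Ifit3b (plus strand, chr19:34607707-34607956) holds it 2 times on the opposite strand, at -188 to -179 and -154 to -145. Igtp (plus strand, chr11:58199306-58199555) holds it from -34 to -25.
Tgtp1: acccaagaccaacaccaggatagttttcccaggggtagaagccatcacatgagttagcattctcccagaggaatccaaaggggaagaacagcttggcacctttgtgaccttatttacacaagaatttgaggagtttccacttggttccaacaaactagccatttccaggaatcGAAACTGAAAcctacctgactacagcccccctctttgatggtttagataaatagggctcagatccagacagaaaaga
Ifit3b: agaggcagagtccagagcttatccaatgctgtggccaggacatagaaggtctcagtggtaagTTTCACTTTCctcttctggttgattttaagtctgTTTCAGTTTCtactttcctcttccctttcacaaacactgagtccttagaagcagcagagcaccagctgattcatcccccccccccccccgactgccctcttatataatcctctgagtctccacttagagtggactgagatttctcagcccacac
Igtp: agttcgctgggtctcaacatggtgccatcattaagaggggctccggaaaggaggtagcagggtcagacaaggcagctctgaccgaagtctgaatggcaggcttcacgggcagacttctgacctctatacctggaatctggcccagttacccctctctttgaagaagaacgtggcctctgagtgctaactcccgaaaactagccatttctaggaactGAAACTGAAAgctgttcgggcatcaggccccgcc
The windows of Slfn4, Oasl1 and Ifit2 held no such core, which says only that these letters are not in them. A match describes the sequence and is not a measured site of binding.

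The interferon-inducible GTPases, which attack the membranes of intracellular microbes, all fell: 16 of 16 were called lower, with a median of -3.96 log2. Tgtp1 was at 345, 333 and 199 CPM at 4 h, at 5.34, 8.52 and 6.17 at 24 h and at 9.06, 7.74 and 4.98 in the controls (log2 -5.45 ± 0.28, adjusted p = 5.88e-08, edgeR). Igtp went from 729, 791 and 542 CPM to 28.7, 46.4 and 28.6, against 32.6, 41.1 and 20.8 in the controls (log2 -4.31 ± 0.29). For both genes the 24 h libraries overlapped the controls and lay far below all 4 h libraries. Iigp1 and Ifi47, of the same immunity-related family, fell by 4.59 and 4.36 on the log2 scale. Tgtp1 and Tgtp2, and likewise Ifit3 and Ifit3b, are near-identical copies whose reads the authors' counting could have split, so the value of each alone is uncertain.

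Among the sensors and transcription factors of the response, 16 of 18 fell and none of the list rose, with a median of -2.06 log2. The cytosolic RNA sensors Ddx58 (RIG-I) and Ifih1 (MDA5) fell by 3.14 and 3.15 on the log2 scale, and their relative Dhx58 by 3.76. Irf7, the factor that amplifies type I interferon production, went from 361, 482 and 399 CPM to 118, 175 and 104 and the controls were at 12.5, 19.8 and 14.2 (log2 -1.64 ± 0.21, adjusted p = 0.000104, edgeR). All 24 h libraries of Irf7 were below those of 4 h and well above the controls, as with Bst2. The members that did not pass were Mb21d1 (cGAS, log2 -0.51 ± 0.38) and Irf5 (-0.32 ± 0.13). Irf5 was called with the length and GC correction (-0.42), with limma voom (-0.37), with no count filter (-0.34) and without replicate 1 of 24 h (-0.51) or replicate 3 of 4 h (-0.39).

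Set against the controls at 24 h, the interferon genes did not all stand at the same place. Of the 68 genes in the 3 lists, 21 had all 24 h libraries above all controls, 6 had all below and 41 overlapped. Over all 14854 tested genes, 2766 (18.6%) lay wholly above the controls and 2908 (19.6%) wholly below. The effectors held most of the genes above, with 16 of 34, against 4 of 18 sensors and factors and 1 of 16 GTPases. These counts are descriptions of the levels and come without a test and without the length and GC correction.

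Antigen presentation split by class. In the class I list, 14 of 17 tested genes fell (median log2 -1.50) and none rose, while H2-Q6 and H2-Q7 were at 0 in all 6 libraries. The peptide transporter Tap1 fell by 3.33 on the log2 scale, the immunoproteasome subunit Psmb9 by 2.61 and Nlrc5, the transactivator of class I genes, by 3.95. The light chain B2m was at 712, 742 and 653 CPM at 4 h and 466, 633 and 508 at 24 h and was not called (log2 -0.39 ± 0.28), nor were the heavy chains H2-K1 (-0.43 ± 0.28) and H2-D1 (-0.32 ± 0.21). A fit of only the 2 groups called B2m and H2-K1 lower, at the same fold changes. Class I heavy chains resemble each other closely, so reads may have been shared among them. In the class II list, 5 of 11 rose and 1 fell, with 2 higher under the term for deep libraries and 3 without replicate 2 of 24 h or without replicate 3 of 4 h. The gene that fell was Ciita, the transactivator of class II genes, with 35.5, 31.8 and 25.1 CPM at 4 h, 2.72, 2.79 and 3.01 at 24 h and 6.81, 4.36 and 4.01 in the controls (log2 -3.44 ± 0.20, adjusted p = 2.83e-09, edgeR). Its 24 h libraries lay below those of 4 h and below the controls. The class II chain H2-Eb1 went the other way, from 62, 58.7 and 49.3 CPM to 101, 114 and 103 (log2 0.90 ± 0.20, adjusted p = 0.00277, edgeR), with the controls at 131, 88.2 and 77.9, and H2-Ob rose by 1.79.

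Chemokines, the attractants of leukocytes, fell as a group, with 19 of 22 lower, 1 higher and a median of -2.32 log2. Cxcl10, the interferon-induced ligand of CXCR3 at chr5:92346638-92348889, was at 156, 219.9 and 131 CPM at 4 h, 5.66, 6.86 and 5.45 at 24 h and 5.49, 5.56 and 3.2 in the controls (log2 -4.82 ± 0.30, adjusted p = 5.72e-07, edgeR). Ccl2, which draws monocytes, went from 8.83, 13.3 and 7.92 CPM to 0.587, 0.245 and 0.478, with the controls at 0.494, 0.344 and 0.431 (log2 -4.52 ± 0.33, adjusted p = 5.31e-08, edgeR). For both, the 24 h libraries overlapped the controls. Ccl5, a T-cell attractant, fell by 2.12 on the log2 scale but at 24 h, at 6.72, 8.72 and 6.83 CPM, lay above all controls (2.25, 0.745 and 0.807). The gene that rose was Cxcl12, a constitutive chemokine of stroma at chr6:117168535-117181368: 109, 118 and 141 CPM at 4 h and 204, 186 and 209 at 24 h, with the controls at 203, 139.8 and 169 (log2 0.70 ± 0.12, adjusted p = 0.00022, edgeR).

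Genes that NF-kB activates fell in 20 of 22 cases (median log2 -1.60). Prominent among them were the leukocyte adhesion molecules of endothelium: E-selectin (Sele) fell by 2.99 and Vcam1 by 2.32 on the log2 scale. The cytokine Tnf fell by 2.93. Cd14 (log2 0.06 ± 0.19) and Nfkbie (-0.67 ± 0.27) did not pass the test, though Nfkbie was called by DESeq2 (-0.65) and without replicate 3 of 4 h (-0.94). Of the feedback inhibitors of inflammation, 10 of 14 fell, with Usp18, the inhibitor of the type I interferon receptor, lower by 4.06, Il1rn, the interleukin 1 receptor antagonist, by 3.74 and Socs3 by 2.42. Nfkbia, which encodes the NF-kB inhibitor, was not called (log2 0.04 ± 0.14).

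Acute-phase genes and receptors of the IL-6 family fell in 16 of 21 cases (median log2 -1.34). Lcn2, the siderophore-binding protein NGAL that damaged tubules release, was at 27.9, 52 and 50.2 CPM at 4 h, 4.7, 2.99 and 7.65 at 24 h and 3.84, 4.47 and 2.4 in the controls (log2 -3.07 ± 0.55, adjusted p = 0.00143, edgeR). Saa3, a serum amyloid A gene of inflamed tissue, went from 4.13, 3.89 and 2.55 CPM to 0.374, 0.392 and 0.86, with the controls at 0, 0.0573 and 0.0269 (log2 -2.70 ± 0.37, adjusted p = 4.88e-05, edgeR). All 24 h libraries of Saa3 were below those of 4 h and above the controls, while those of Lcn2 overlapped the controls.

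Markers of tubule injury were mixed, with 3 of 20 higher and 6 lower, Lcn2 among the latter. The rises were few and loose, between 0, without replicate 1 of 4 h, and 5, in a fit of only the 2 groups. Havcr1, which encodes the injury marker KIM-1, stood at 3.8, 4.81 and 3.42 CPM at 4 h, 2.46, 2.79 and 2.1 at 24 h and 1.26, 2.29 and 1.56 in the controls. Its 2 times did not overlap, but it did not pass the test (log2 -0.72 ± 0.34, adjusted p = 0.0964, edgeR), except in a fit of only the 2 groups (-0.72). Timp1, the metalloprotease inhibitor, fell from 8.19, 12.2 and 8.41 CPM to 0.694, 1.03 and 1.15, a level that overlapped the controls at 0.714, 0.917 and 0.35 (log2 -3.32 ± 0.30, adjusted p = 9.4e-07, edgeR). In the list of matrix proteases and inhibitors, Adamts4 fell by 2.31 on the log2 scale, while Mmp2, the gelatinase of fibroblasts, rose by 1.27.

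**Figure D2:**
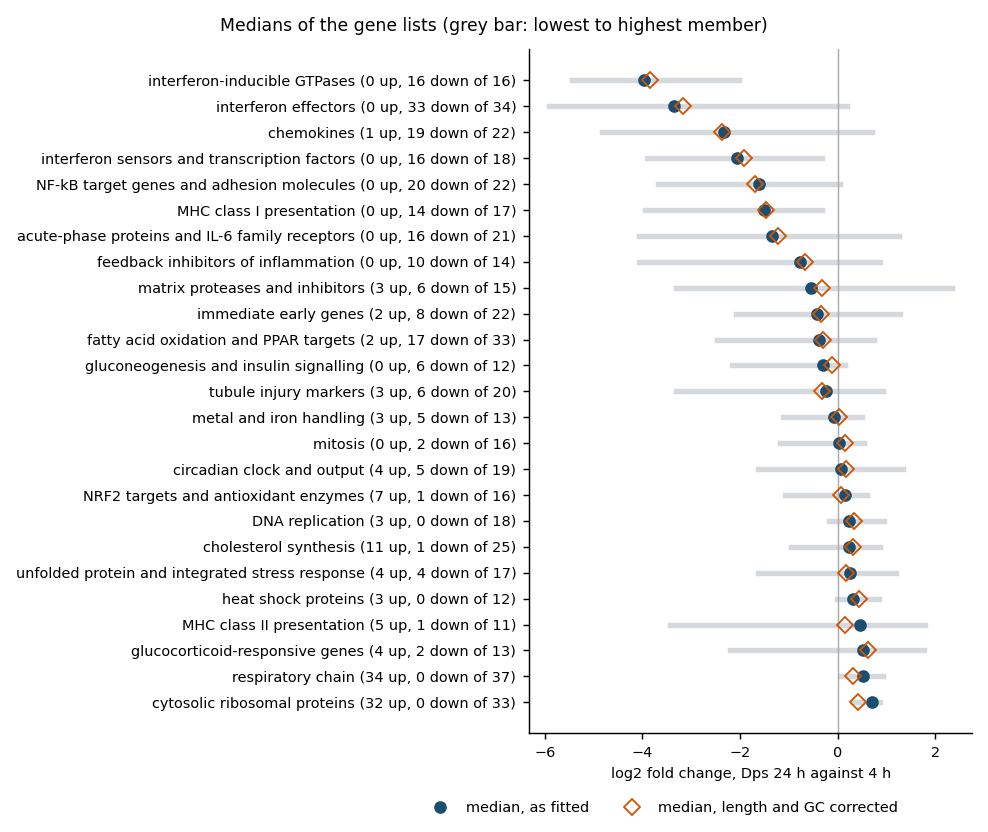
Median log2 fold change of each gene list at 24 h against 4 h, as fitted and after the length and GC correction, with a bar from the lowest to the highest member and the counts of members called in brackets. The interferon, chemokine and NF-kB lists lie far below 0, while the respiratory and ribosomal lists lie above it and move towards 0 with the correction.

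Of 19 clock and output genes, 4 were higher and 5 lower (6 and 3 with the length and GC correction), near the shares of 22% and 22.6% over all genes, so the count is no result about the list. The clock is a loop in which ARNTL (BMAL1) with CLOCK or NPAS2 drives the period and cryptochrome genes and outputs such as Dbp. Arntl, at chr7:113178471-113314126, was at 4.23, 5.8 and 5.91 CPM at 4 h, 2.08, 1.86 and 1.34 at 24 h and 5.54, 6.71 and 4.14 in the controls (log2 -1.59 ± 0.27, adjusted p = 0.000218, edgeR). Npas2, at chr1:39193702-39363240, went from 2.34, 3.21 and 2.11 CPM to 1.12, 0.539 and 0.86, with the controls at 2.14, 2.58 and 2.18 (log2 -1.63 ± 0.33, adjusted p = 0.000911, edgeR). For both activators the 24 h libraries were below all libraries of 4 h and of control. Some targets of the loop rose. Ciart, a repressor of the loop, was at 8.31, 7.92 and 9.44 CPM at 4 h, 20.3, 21.9 and 21.9 at 24 h and 11.7, 7.57 and 15.4 in the controls (log2 1.33 ± 0.30, adjusted p = 0.00359, edgeR). Dbp was at 95.1, 123 and 128 CPM and then 192, 188 and 180.1, with the controls at 109.8, 104 and 137 (log2 0.70 ± 0.11, adjusted p = 0.000173, edgeR). For Ciart and Dbp the 24 h libraries were above all others. Per1 was also called (log2 1.19 ± 0.38, adjusted p = 0.0273, edgeR), from 49.2, 32.9 and 44.3 CPM to 71.6, 108 and 109, but the call was lost with a term for deep libraries (1.23) and without replicate 2 (1.10) or 3 (1.09) of 24 h, or replicate 1 (1.31), 2 (1.03) or 3 (1.22) of 4 h. Per2 (log2 0.53 ± 0.24) and Nr1d1, the repressor REV-ERBα (-0.33 ± 0.17), did not pass. Nr1d1 was called with voom (-0.41) and without replicate 1 of 4 h (-0.46). Per2 was called with voom (0.56), with the length and GC correction (0.75) and without replicate 1 of 24 h (0.71). Since the hour of collection is not stated, time of day and time since injection cannot be told apart.

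The activator pair binds the E-box CACGTG, found in the promoters of 5 of the 16 clock genes with an entry (31.3%), of 1169 of 11723 tested genes (9.97%) and of 1956 of all 27025 (7.24%). The D-box TTANGTAA was in 1 of the 16 (6.25%) and in 175 tested genes (1.49%), and the ROR element TAGGTCA in 1 of the 16 and in 244 (2.08%). Of the interferon promoters, 0 of 49 held the E-box. The window of Ciart (minus strand, chr3:95882229-95882478) holds 3 E-boxes, in capitals, at -116 to -111, -58 to -53 and -44 to -39, and is shown as the promoter of the riser with the most matches among the clock genes named.
Ciart: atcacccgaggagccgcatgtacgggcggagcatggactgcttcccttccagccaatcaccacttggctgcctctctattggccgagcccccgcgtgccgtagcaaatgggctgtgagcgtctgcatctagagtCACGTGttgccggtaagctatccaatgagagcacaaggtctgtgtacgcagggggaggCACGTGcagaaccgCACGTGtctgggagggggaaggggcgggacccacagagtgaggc

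Genes that glucocorticoids induce differed among themselves. Tsc22d3 (GILZ) rose from 63.3, 48.1 and 54.9 CPM to 133, 209 and 227, with the controls at 90.4, 56 and 78 (log2 1.78 ± 0.31, adjusted p = 0.00113, edgeR). Ddit4 (REDD1) rose from 21, 18.3 and 21.4 CPM to 41.1, 39.8 and 40.3, with the controls at 24, 16.6 and 21.9 (log2 1.0 ± 0.17, adjusted p = 0.000299, edgeR). Both were higher in every 24 h library than in any other of the 9. Fkbp5, a co-chaperone of the receptor, was at 179.9, 158 and 150.2 CPM and then 131, 182 and 172 and was not called (log2 -0.01 ± 0.23). Of the list, 4 of 13 rose, with 2 higher when replicate 2 of 4 h was left out. Another 2 fell, with the larger change at -2.20 log2, farther from 0 than any rise of the list. Immediate early genes more often fell, with 8 of 22 lower and 2 higher. Atf3 fell by 2.09 on the log2 scale and Dusp2 by 1.58, whereas Ier3 rose by 1.27.

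**Figure D3:**
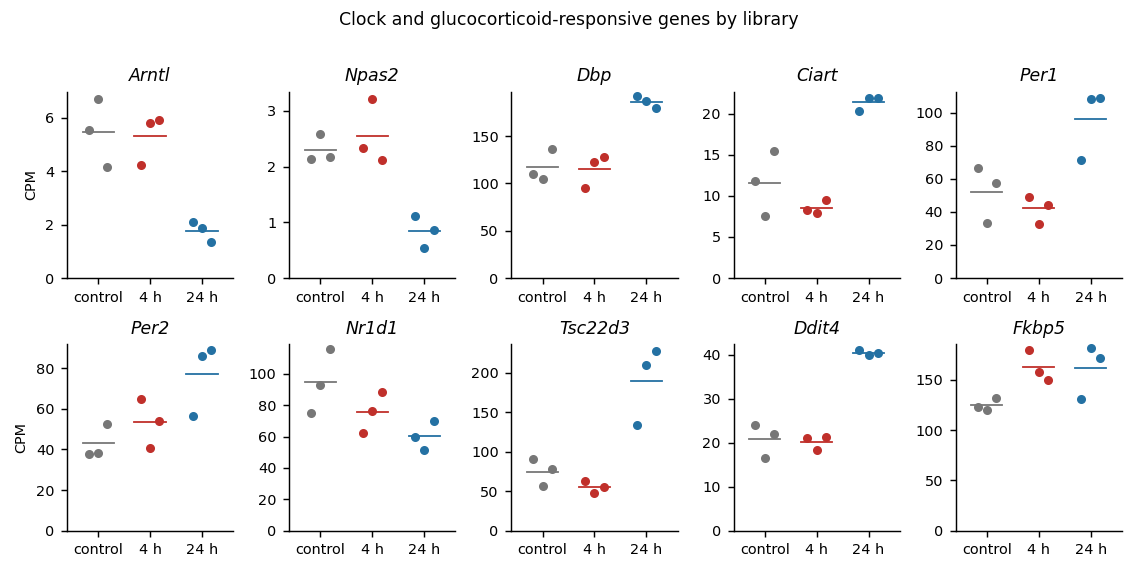
CPM of clock and glucocorticoid-responsive genes in each control, Dps 4 h and Dps 24 h library, with 1 point a library and a bar at the group mean. Arntl and Npas2 are lowest at 24 h, and Ciart, Dbp, Tsc22d3 and Ddit4 are highest there.

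Endothelial markers did not move as one. Of 20, 10 rose and 3 fell, and their summed level was 482 to 661 CPM at 4 h, 786 to 883 at 24 h and 699 to 796 in the controls. Plvap, the diaphragm protein of fenestrated capillaries at chr8:71497753-71511806, was at 42.1, 65.2 and 61.1 CPM at 4 h, 151, 157 and 172 at 24 h and 129.6, 116 and 123 in the controls (log2 1.51 ± 0.16, adjusted p = 1.01e-05, edgeR). Tek, the angiopoietin receptor TIE2, went from 12.4, 16 and 19.4 CPM to 36.1, 41.2 and 48.5, with the controls at 38.4, 27.6 and 35.3 (log2 1.41 ± 0.15, adjusted p = 7.52e-06, edgeR), and Emcn and Tie1 rose by 1.45 and 1.16. In the opposite direction Cdh5, the cadherin of endothelial junctions, was at 34.8, 44.8 and 43.4 CPM and then 20.1, 21.2 and 20.3, with the controls at 22, 20.7 and 30.3 (log2 -1.0 ± 0.14, adjusted p = 4.28e-05, edgeR). Robo4 fell by 0.88 and the nitric oxide synthase Nos3 by 0.68 on the log2 scale. Pecam1 was not called (-0.17 ± 0.10), except when replicate 1 of 4 h was left out (-0.28). For Plvap and Tek the 4 h libraries were the low ones among the 9, and for Cdh5 the high ones.

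Markers of macrophages and monocytes rose in 11 of 20 cases and fell in 4; their summed level was 225 to 244 CPM at 4 h, 304 to 347 at 24 h and 222 to 290.1 in the controls. With the term for deep libraries 6 rose. The complement genes of resident macrophages rose together. C1qa, at chr4:136895916-136898844, was at 9.47, 9.37 and 6.45 CPM at 4 h, 30.1, 35.1 and 32.6 at 24 h and 20, 17 and 12.3 in the controls (log2 1.93 ± 0.16, adjusted p = 3.24e-07, edgeR), and C1qc and C1qb rose by 1.75 and 1.36. Cx3cr1, the fractalkine receptor, went from 2.6, 2.03 and 1.9 CPM to 6.14, 6.95 and 7.46, with the controls at 5.6, 3.96 and 4.57 (log2 1.63 ± 0.22, adjusted p = 4.34e-05, edgeR). In C1qa and Cx3cr1 all 24 h libraries were above all controls and all 4 h libraries below them. The 4 members that fell included a gene of resident macrophages, the engulfment receptor Mertk (0.47 lower on the log2 scale). Of the others, Ly6c2 of inflammatory monocytes fell by 1.43, the integrin Itgam by 0.96, and Fcgr1, the high-affinity IgG receptor, from 4.63, 5.94 and 5.04 CPM to 1.65, 1.76 and 2.53 (log2 -1.39 ± 0.19), with the controls at 1.65, 1.66 and 1.24. Adgre1 (F4/80) was called (log2 0.81 ± 0.27, adjusted p = 0.0224, edgeR) but lost the call with the term for deep libraries (0.76), without replicate 3 of 24 h (0.59) and without replicate 2 (0.76) or 3 (0.68) of 4 h.

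Among dendritic cell markers, 2 of 9 rose, near the share of 22% over all genes, and none fell. Cd209a, the lectin DC-SIGN at chr8:3743395-3748984, gave the largest rise among the genes named by rule, from 0.0708, 0.0966 and 0.0542 CPM at 4 h to 1.12, 0.686 and 1.48 at 24 h (log2 3.73 ± 0.60, adjusted p = 0.000168, edgeR). Its 24 h libraries overlapped the controls (1.43, 0.803 and 2.07), and the 4 h libraries stood apart below. The size of the change depended on the setting: 2.78 in libraries thinned to the smallest total and 4.46 with a term for deep libraries. Neutrophil markers were scarce, with 8 of 14 too low to be tested, 1 without a row in the table used here, and Elane and Camp at 0 in all 6 libraries. Of the 5 tested, 3 fell and none rose, with and without the length and GC correction. S100a8, a calprotectin subunit, was at 1.23, 1.55 and 0.488 CPM at 4 h, 0.267, 0.0979 and 0.143 at 24 h and 0, 0 and 0.0538 in the controls (log2 -2.75 ± 0.57, adjusted p = 0.00119, edgeR). That call was lost with the term for deep libraries (-1.43), and the value was -3.57 in the thinned libraries.

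In the proximal tubule, the segment the study's title names as the target, most markers were not called: 6 of 31 rose and 4 fell, with a median of -0.04 log2. Slc34a1 was not called (log2 0.12 ± 0.09, adjusted p = 0.296, edgeR). For the endocytic receptors of the brush border the sign depended on the correction for length and GC content. Lrp2 (megalin) was at 2346, 2061 and 2106 CPM at 4 h and 1979.7, 2119 and 2121 at 24 h (log2 -0.07 ± 0.08, adjusted p = 0.524, edgeR), with the controls at 2439, 2475 and 2739; with the correction it was 0.37 and called. Cubn (cubilin) was called lower as fitted (log2 -0.28 ± 0.08, adjusted p = 0.0118, edgeR) and stood at 0.16 with the correction, so no direction is given for either. The call for Cubn was also lost with the term for deep libraries (-0.17), without replicate 2 of 24 h (-0.26) and without replicate 1 of 4 h (-0.21).

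Sodium-coupled transport genes of the same segment were called in both directions. Slc13a1, the sulfate cotransporter, was at 727, 675 and 678 CPM at 4 h, 298, 338 and 324 at 24 h and 392, 349.6 and 399 in the controls (log2 -1.11 ± 0.17, adjusted p = 0.000173, edgeR). Slc9a3, the sodium-proton exchanger NHE3, went from 44.4, 40.6 and 49 CPM to 21.2, 22.7 and 19.5, with the controls at 41.8, 41.3 and 63.2 (log2 -1.08 ± 0.20, adjusted p = 0.00101, edgeR). At 24 h both were below all control libraries. At 4 h Slc13a1 was above them, whereas Slc9a3 overlapped them. Slc5a2, the glucose cotransporter SGLT2, rose by 0.47 on the log2 scale. Miox, the myo-inositol oxygenase, rose by 0.60 and Amn, the partner of cubilin, by 0.53 on the log2 scale.

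Further along the nephron, the thick ascending limb gene Umod (uromodulin) was at 2424, 2548 and 2849 CPM at 4 h and 2676, 2011 and 2442 at 24 h and was not called (log2 -0.13 ± 0.12), nor was Slc12a3, the thiazide-sensitive cotransporter of the distal convoluted tubule (-0.03 ± 0.08). Casr, the calcium-sensing receptor, fell from 25.7, 23 and 31 CPM to 11.2, 12.3 and 10.3, with the controls at 24.6, 23.4 and 35.9 (log2 -1.23 ± 0.19, adjusted p = 0.000135, edgeR). Klhl3 and the calcium channel Trpv5 fell by 0.79 and 0.80. In principal cells of the collecting duct, 5 of 11 markers rose and 1 fell. Aqp2, the vasopressin-regulated water channel at chr15:99579056-99584545, was at 136, 180.0 and 169.6 CPM at 4 h, 425, 364 and 438 at 24 h and 141, 232 and 133 in the controls (log2 1.34 ± 0.23, adjusted p = 0.000701, edgeR), so every 24 h library lay above all 6 others. Aqp3 rose by 0.71 and Fxyd4 by 0.82, while Nr3c2, the mineralocorticoid receptor, fell by 0.79. Of 11 intercalated cell markers, 6 rose and 1 fell, with the chloride-bicarbonate exchangers apart: Slc26a4 (pendrin) rose by 0.53 and Slc4a9 fell by 0.31.

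In podocytes, 6 of 14 markers fell and 2 rose (2 fell with the term for deep libraries), and the list's median went from -0.23 as fitted to 0.02 with the length and GC correction. Nphs1 was not called (log2 -0.05 ± 0.13) and Cdkn1c rose by 0.92.

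**Figure D4:**
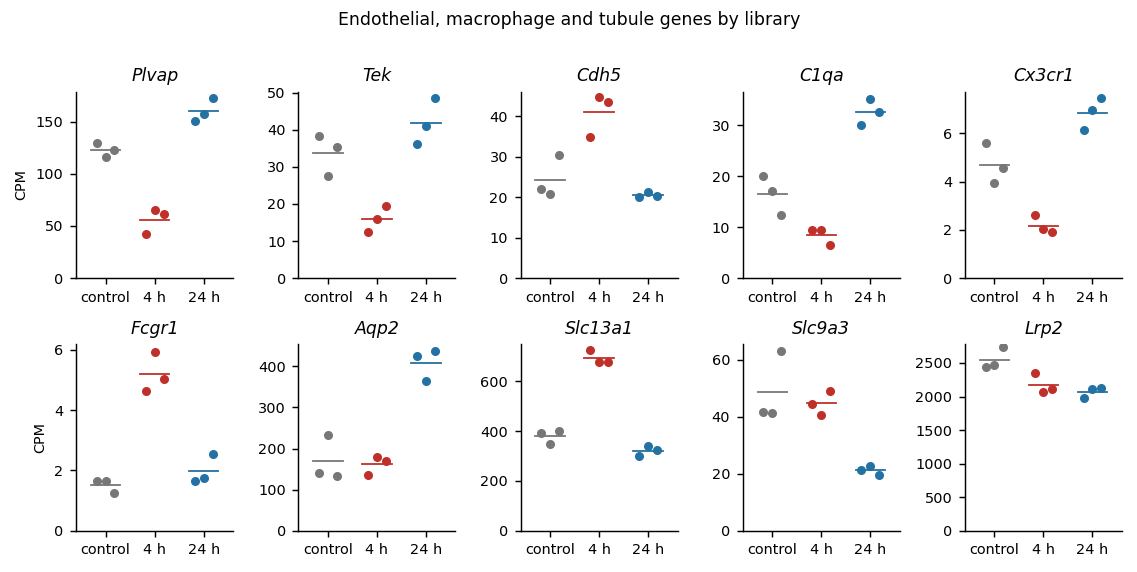
CPM of endothelial, macrophage and tubule genes in each control, Dps 4 h and Dps 24 h library, with 1 point a library, a bar at the group mean and axes from 0. Plvap, Tek, C1qa and Cx3cr1 are lowest at 4 h, Cdh5 and Fcgr1 highest at 4 h, and Slc9a3 lowest at 24 h.

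Genes of fatty acid oxidation and other PPAR targets fell in 17 of 33 cases and rose in 2 (median log2 -0.38). Cpt1a, which admits long-chain fatty acids to mitochondria, was at 662, 536 and 644 CPM at 4 h, 406, 405 and 393 at 24 h and 583, 560.0 and 636 in the controls (log2 -0.61 ± 0.09, adjusted p = 0.000114, edgeR). Vnn1, a PPAR-alpha target, went from 259, 259.6 and 294 CPM to 135, 132 and 143, with the controls at 218, 166 and 176 (log2 -0.99 ± 0.10, adjusted p = 1.32e-06, edgeR). For Cpt1a and Vnn1, all 24 h libraries were below all controls, as in 18 of the 33 genes of the list. Over all 14854 tested genes it was 2908 (19.6%), in levels without the length and GC correction. Adipocytes express some of these genes too. The summed level of 12 adipocyte markers was 294 to 353 CPM at 4 h, 185 to 325 at 24 h and 83.8 to 177 in the controls, with 2 called lower, and its part in the result was not tested.

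The genes of glucose production and insulin signalling fell in 6 of 12 cases and none rose; with the length and GC correction 4 fell and 2 rose, and with the term for deep libraries 3 fell. Pck1, the first committed enzyme of gluconeogenesis, fell by 0.86 and Igfbp1 by 2.16 on the log2 scale. Cholesterol synthesis moved the other way, with 11 of 25 higher (7 without replicate 2 of 24 h) and 1 lower. Fdps, the farnesyl diphosphate synthase, was at 16.2, 23.7 and 15.4 CPM at 4 h, 32.9, 31.9 and 28.1 at 24 h and 16.5, 21.2 and 15.2 in the controls (log2 0.74 ± 0.17, adjusted p = 0.00284, edgeR), and its 24 h libraries were above all others. Pmvk and Mvk, the mevalonate kinases, rose by 0.87 and 0.78. Hmgcs1, at the head of the pathway, was not called (log2 0.27 ± 0.12, adjusted p = 0.0846, edgeR), and was called with voom (0.34), the length and GC correction (0.41), the depth term (0.41) and without replicate 1 of 4 h (0.39).

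Subunit genes of the respiratory chain and of the ribosome rose almost throughout. In the respiratory chain 34 of 37 subunit genes were higher and none lower, with a median of 0.52 log2, and of the cytosolic ribosomal proteins 32 of 33 were higher, with a median of 0.70. With the length and GC correction the medians were 0.31 and 0.41, and 30 and 31 genes were called. Atp5e, the epsilon subunit of ATP synthase at chr2:174461075-174464101, was at 169.7, 184 and 163 CPM at 4 h, 336, 332 and 311 at 24 h and 194, 215 and 160.0 in the controls (log2 0.92 ± 0.13, adjusted p = 6.52e-05, edgeR). Rpl38, a protein of the large ribosomal subunit at chr11:114667818-114672333, went from 77.4, 75.7 and 80.6 CPM to 147, 143 and 135, with the controls at 90.7, 89 and 74.6 (log2 0.86 ± 0.10, adjusted p = 9.75e-06, edgeR). The 24 h libraries of both lay above all 6 others. All 24 h libraries lay above all controls in 30 of 37 respiratory and 32 of 33 ribosomal genes, beside 2766 (18.6%) of all 14854 tested genes. These levels are without the length and GC correction. With it, the genes called between Dps at 24 h and control went from 2979 to 1449. Processed copies of ribosomal genes could share their reads.

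After MnDps the medians of the same families lay below 0 as fitted, without the length and GC correction. The change in Dps minus the change in MnDps, tested as an interaction, was called in 4368 of 14854 genes (29.4%), and in 2300 (15.5%) with the length and GC correction. It was called in 2724 when replicate 2 of MnDps at 24 h was left out, which leaves 1 library there, assumed to vary like the others. Higher in Dps were 53.4% of these calls as fitted and 72.1% with the correction. Across genes this difference correlated with transcript length (rho -0.59, over 14760 genes). The respiratory list's median change was -0.26 log2 after MnDps and that of the ribosomal list -0.24, both as fitted. The change after MnDps itself correlated with length, in the opposite direction to that after Dps (rho 0.29). With the correction the median difference went from 0.86 to 0.36 in the respiratory list and from 0.95 to 0.45 in the ribosomal list. The difference was called in 34 respiratory and 32 ribosomal genes as fitted, and in 26 and 24 with the correction. For Atp5e the difference was 1.47 ± 0.20 log2 (adjusted p = 0.000361, edgeR; 1.15 with the correction).

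**Figure D5:**
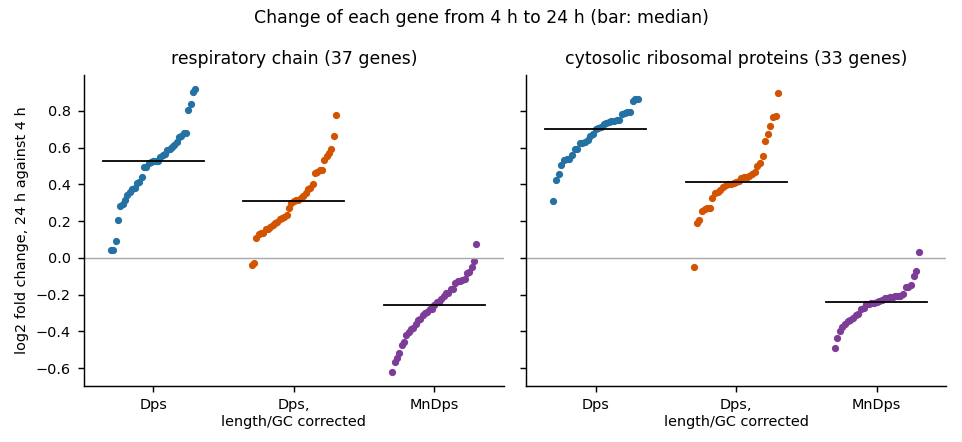
Log2 fold change of each respiratory chain and cytosolic ribosomal gene at 24 h against 4 h after Dps and after MnDps, with 1 point a gene and the Dps values also shown after the length and GC correction. The Dps values lie mostly above 0 and the MnDps values, shown only without the correction, mostly below it.

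The metal and iron genes, of interest since Dps proteins store iron, showed no common direction, 3 of 13 being higher and 5 lower (1 and 3 with the term for deep libraries). Hmox1, the haem oxygenase, was at 75.1, 84 and 87 CPM at 4 h, 27.2, 43.1 and 46.3 at 24 h and 26.6, 57.2 and 45.2 in the controls (log2 -1.07 ± 0.24, adjusted p = 0.0033, edgeR). The metallothionein Mt1 was not called, at 70.2, 105 and 80.2 CPM and then 74.1, 92.9 and 88.2 (log2 0.00 ± 0.25), whereas Mt2 was at 60.1, 89.3 and 63.8 and then 29, 37 and 32.2 (log2 -1.12 ± 0.34, adjusted p = 0.0231, edgeR). The call for Mt2 was lost with the term for deep libraries (-0.87), without replicate 1 (-1.04) or 3 (-1.11) of 24 h and without replicate 2 of 4 h (-0.93). Metal carriers were divided. Slc11a2 (DMT1) fell by 0.74, Slc39a10 by 0.72 and Slc40a1 (ferroportin) by 0.64 on the log2 scale, whereas Slc39a8 (log2 0.02 ± 0.10) and Slc39a14 (-0.08 ± 0.15) were not called. The ferritin heavy chain Fth1 rose by 0.44 (0.37 with the length and GC correction).

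Antioxidant enzymes and other NRF2 targets rose in 7 of 16 cases and fell in 1, which was Hmox1. Sod1, the cytosolic superoxide dismutase, was at 532, 556 and 553 CPM at 4 h, 867, 858 and 780.4 at 24 h and 657, 725 and 616 in the controls (log2 0.61 ± 0.10, adjusted p = 0.000186, edgeR), above all others at 24 h. The peroxiredoxin Prdx1 rose by 0.42. In the stress response to unfolded protein or lack of amino acids, 4 of 17 rose and 4 fell, near the shares of 22% and 22.6% over all genes. The rises ran from 1, with the length and GC correction, to 8, in a fit of only the 2 groups. Sdf2l1, of the endoplasmic reticulum, rose by 1.20, while the ATF4 targets Trib3, Sesn2 and Asns fell by 1.62, 1.25 and 1.13 on the log2 scale.

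Outside these lists, large rises were seen in genes of varied function. Ndufa4l2, a mitochondrial protein induced by hypoxia at chr10:127509274-127517154, went from 0.779, 1.14 and 1.25 CPM to 6.08, 7.35 and 5.26, with the controls at 3.29, 4.99 and 4.2 (log2 2.60 ± 0.23, adjusted p = 5.23e-07, edgeR). Gadd45g, a growth-arrest gene at chr13:51846675-51848475, was at 19.8, 18 and 19.5 CPM at 4 h, 68.4, 134 and 121 at 24 h and 29.9, 47.6 and 36.6 in the controls (log2 2.50 ± 0.35, adjusted p = 0.000306, edgeR). Vipr1, the receptor of vasoactive intestinal peptide, rose by 2.87 log2, Enho, which encodes the peptide adropin, by 2.29 and Ptgis, the prostacyclin synthase, by 2.10. In Gadd45g and Ptgis all 24 h libraries exceeded every 4 h and control library, while in Ndufa4l2 it was the 4 h libraries that lay below the controls and the 24 h libraries above them. Among the largest falls beyond the interferon lists were Serpina3f, a serine protease inhibitor (-5.45), Trim30d (-4.65) and Slfn9 (-4.89).

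Among the largest differences from MnDps, Gadd45g rose after Dps but stood at 0.16 log2 after MnDps, a difference of 2.34 ± 0.52 (adjusted p = 0.00739, edgeR). Shroom4, an actin-binding protein of long transcript, was at 21.6, 16.1 and 21.2 CPM at 4 h and 3.68, 3.18 and 5.26 at 24 h after Dps (log2 -2.27 ± 0.36, adjusted p = 0.000349, edgeR), with the controls at 14.4, 10.3 and 22. Its change after MnDps was 1.21, a difference of -3.48 ± 0.54 (adjusted p = 0.000924, edgeR; -2.89 with the length and GC correction). Zbed6, a transcriptional repressor, fell by 2.08 after Dps and stood at 1.25 after MnDps. Of the interferon effectors, 10 of 34 fell further after Dps than after MnDps and none less. Genes lower in Dps by this test were 2034 of all 14854, a smaller share, and 29.4% of all genes differed in either direction. With the correction 3 of 34 effectors differed in either direction, beside 15.5% of all genes. Genes lower in Dps were then 641 of all 14854. Slfn4 was among the 10, with a difference of -1.66 ± 0.33 (adjusted p = 0.00168, edgeR).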

How the data were processed

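RNA of whole kidney went into stranded TruSeq mRNA libraries (Illumina), per the labels' protocols. Reads were aligned with STAR to mm10 and counted with featureCounts, per the submitters' processing notes. The versions, the strand setting and the treatment of multiply mapped reads were not given in the sources used here. Raw counts of reads per gene symbol and library, without normalization, are what the authors deposited. Groups came from the labels, and replicates are numbered in the order of the series. No 2 libraries of a group agreed within counting noise (chi-square per degree of freedom 7.74 to 22.0 in the Dps groups).

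Of 24421 genes, 14854 passed edgeR's filterByExpr and 9567 did not. All 14 libraries entered a single fit of 5 group means (edgeR 4.0.16, R 4.3.3, TMM scaling, robust quasi-likelihood test, 9 residual degrees of freedom), which gave both 24 h against 4 h after Dps and the difference of this change from that after MnDps; calls were made at a Benjamini-Hochberg adjusted p under 0.05. The SE is the log2 fold change divided by the square root of F. Levels are CPM of the scaled library. Total counts limit the precision of genes near 1 CPM, and the biological coefficient of variation was 10.7%. The test was checked on simulated counts.

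Earlier results of these data were known when the members, the gene lists and the naming rule were chosen. Named are the 15 largest rises and falls without overlap and a mean of 1 CPM or more where higher, up to 4 called members of a list in each direction, a fixed set of genes kept whatever their result, and the 5 largest differences from MnDps in each direction. The text takes a part of these, and some are not reported here; members named as exceptions to a list, and Ccl5, were chosen after their values were seen. Promoters and positions are from RefSeq tables (GRCm38.p6), matched by symbol for 11723 tested genes. Promoters without a motif were not printed. Transcript length and GC content, known for 99.4% of tested genes, came from the longest GENCODE transcript of each gene symbol. RefSeq served there only to match symbols that GENCODE does not use.

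Alternatives were DESeq2 1.42.0, limma voom with library weights (limma 3.58.1), size factors by median of ratios, the count filter dropped or made stricter, a fit restricted to the groups compared, a test against 1.5-fold, an offset for length and GC content (splines with 5 degrees of freedom), a term for libraries of more than 30000000 counts, and leaving out each library. Thinning every library to 15097093 counts was added after seeing the totals.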

Additional observations from a re-analysis of the deposited data

Results flagged for a closer look

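For 45 of the 143 genes named, the change from 4 h to 24 h after Dps differed from that after MnDps by the interaction test (edgeR, adjusted p between 0.000286 and 0.0422 over these genes); 33 of the 45 were also called in the same direction with the length and GC correction. The share is near the 29.4% of all genes tested, and some of these genes were named for their large difference. Values are the log2 change after Dps minus that after MnDps, and MnDps at 24 h has 2 libraries. Among interferon and immune genes the fall was larger after Dps for Slfn4 (-1.66), Slfn9 (-2.08), Tgtp1 (-1.26) and Ifit2 (-1.17). It was also larger for Trim30d (-0.94), Ddx58 (-0.79), Nlrc5 (-1.22), Ciita (-0.98) and the integrin Itgam (-0.75). Mertk differed by -0.75, with a change of -0.47 after Dps and 0.28 after MnDps. Of these Slfn9, Nlrc5, Ciita and Itgam were not called with the correction.

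Transport and signalling genes of tubules were lower in Dps for Slc9a3 (-2.31), Nr3c2 (-1.79), Klhl3 (-1.64), Casr (-1.62), Trpv5 (-1.03), Slc13a1 (-0.82), Cubn (-0.81), Slc12a3 (-0.58), Slc4a9 (-0.54) and Lrp2 (-0.34). With the correction the difference was -0.11 for Cubn, not called, and 0.41 for Lrp2, called in the other direction. Vascular genes were lower in Dps for Rgs5 (-1.46), Cdh5 (-1.21) and Pecam1 (-0.51, not called with the correction). Other differences below 0 were those of Shroom4 (-3.48), Zbed6 (-3.34), Plk1 (-1.14), the clock repressor Nr1d1 (-0.86) and Cpt1a (-0.69).

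Differences above 0 were found for Gadd45g (2.34), Atp5e (1.47), Rpl38 (1.30), Hspe1 (1.28), Fdps (1.09), Pmvk (1.04), Sod1 (0.95), Miox (0.83), Cdkn1c (0.82), Fth1 (0.79), Amn (0.73) and Prdx1 (0.68), each called with the correction too. They were also above 0 for Sdf2l1 (1.08), Ddit4 (1.03), Slc5a2 (0.38), Tagln (0.78) and Fxyd4 (0.65), which were not called with the correction.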

How the results depend on the processing

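The counts of genes past the threshold stayed within 1.5 times of their values under size factors, filters, DESeq2, voom, thinning and a fit of only the groups compared. They did not under a minimum of 1.5-fold, with 189 higher and 555 lower genes and 189 that differ from MnDps, under the term for deep libraries, with 2117 higher and 2108 lower, or under the length and GC correction, with 2140 lower and 2300 differing. Leaving out 1 library gave 2442 to 2888 higher, 2596 to 3044 lower and 2724 to 4598 differing genes, the lowest without replicate 2 of MnDps at 24 h. Of the 143 genes named, 137 kept direction and call with the correction, as did 137 with the depth term, 142 with DESeq2 and all 143 in the thinned libraries. Under the minimum of 1.5-fold 95 did so and 48 lost their call. Cubn (0.16) and Lrp2 (0.37) turned to positive log2 changes with the correction. So did the medians of the metal (0.017), podocyte (0.024), proximal tubule (0.086), thick ascending limb (0.022) and distal convoluted tubule (0.179) lists, and the heat shock median ran from -0.017, without replicate 3 of Dps at 24 h, to 0.469, without replicate 1. Beyond the correction's own construction, the cause was not tested. Calls near 1 CPM, as for Cd209a and S100a8, are limited by depth. No paired analysis was possible because the labels carry no replicate numbers.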

Other observations

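Heat shock proteins rose in 3 of 12 tested genes between 4 h and 24 h, near the share of 22% over all genes, and none fell. Only 1 rose without replicate 3 of 24 h, and 1 without replicate 1 or 2 of 4 h. Hspe1, the mitochondrial co-chaperonin, was at 119.6, 124 and 119 CPM at 4 h and 198, 193 and 197 at 24 h, with the controls at 128, 163 and 136 (log2 0.70 ± 0.10, adjusted p = 5.63e-05, edgeR). Genes of DNA replication rose in 3 of 18 cases as fitted, beside 22% of all genes. With the length and GC correction 5 rose, beside 23.6% of all genes. The 3 called as fitted were subunits of the replicative helicase: Mcm6 rose by 0.94, Mcm5 by 0.76 and Mcm3 by 0.68 on the log2 scale. Of the mitosis genes 2 of 16 fell and none rose, while with the length and GC correction 2 fell and 3 rose. The polo-like kinase Plk1 fell by 0.91, and the proliferation marker Mki67 was at 2.46, 3.99 and 2.98 CPM at 4 h and 4.64, 3.57 and 3.82 at 24 h (log2 0.35 ± 0.26), a value that was not called as fitted and was called with the length and GC correction (0.76).

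Markers of T and NK cells rose in 2 of 11 tested genes and fell in 1, which was Gzmb, the granzyme of cytotoxic cells (log2 -1.89 ± 0.49, adjusted p = 0.00536, edgeR). Of 3 B cell markers with enough counts none was called by edgeR. Of the fibroblast and smooth muscle markers 2 of 11 rose and 2 fell. The smooth muscle gene Tagln rose by 0.88 and the pericyte gene Rgs5 fell by 0.74. Urothelial markers rose in 2 of 7 cases, beside 22% of all genes, with 0 to 4 over the alternatives. The erythroid list had 1 tested gene.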
